A study of Mus musculus with 6 samples.

Results

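The circadian clock was followed through 10 genes, the core clock genes *Arntl*, *Clock*, *Per1*, *Per2*, *Per3*, *Nr1d1*, *Nr1d2* and *Ciart* and the clock output genes *Dbp* and *Tef*, out of 27202 genes in the deposited table. They were taken by name, and each name matched 1 gene. The data are 3 libraries from the colon of *Nedd4l* fl/fl VillinCre mice (VillinCre) and 3 from *Nedd4l* fl/fl littermates (fl/fl), and n counts libraries. Both genotypes carry the floxed alleles of the E3 ubiquitin ligase gene *Nedd4l* and differ in the Cre transgene. The Villin promoter drives Cre in intestinal epithelial cells (IECs), and whole tissue also holds cells in which that promoter is not active. All mice were 8 to 10 weeks old, on a C57BL/6J background, and had received 2% dextran sulfate sodium (DSS), a polysaccharide that injures the colonic epithelium, for 7 days. Where 3 values are given for a genotype, they are those of replicates 1, 2 and 3 in that order. The hour of day at which each mouse was killed is not given in the sources used here. The comparison asks whether clock gene levels differed between the genotypes, as a check for libraries sampled at different times of day.

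The clock is a feedback loop of transcription with a period of about a day, present in nearly every cell, colonic epithelium included. CLOCK and BMAL1, the product of *Arntl*, bind together at E-boxes and activate the *Per*, *Cry*, *Nr1d1*, *Nr1d2*, *Dbp*, *Tef* and *Ciart* genes, and the PER and CRY proteins and CIART then repress CLOCK and BMAL1. The nuclear receptors REV-ERBα (*Nr1d1*) and REV-ERBβ (*Nr1d2*) repress *Arntl*, which the ROR receptors activate, while DBP and TEF act at D-boxes, where NFIL3 opposes them. In mouse tissues the transcripts follow one another through the day, with *Nr1d1* before *Per2*, *Per2* before *Cry1*, and *Arntl* nearly opposite to *Nr1d1*, so that a set of libraries taken at different hours can differ in several clock genes at once.

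E-boxes and D-boxes are sites through which the loop runs, and 4 promoters of clock genes are shown because they differ in those sites. They come from RefSeq promoters on GRCm38.p6, in which 9 of the 10 genes were matched, all but *Per2*, and they are printed without bases of annotated exons. Capitals mark an E-box (CACGTG) or a D-box (TTATGTAA or TTACGTAA), each searched on both strands, and the 2 motifs share no position here. *Ciart* (chr3:95882252-95882478, minus strand) has 3 E-boxes, *Per1* (chr11:69098699-69098947, plus strand) has 1 E-box, *Per3* (chr4:151044666-151044915, minus strand) has 2 D-boxes, and *Nr1d1* (chr11:98775378-98775627, minus strand) has neither motif in this window.
Ciart: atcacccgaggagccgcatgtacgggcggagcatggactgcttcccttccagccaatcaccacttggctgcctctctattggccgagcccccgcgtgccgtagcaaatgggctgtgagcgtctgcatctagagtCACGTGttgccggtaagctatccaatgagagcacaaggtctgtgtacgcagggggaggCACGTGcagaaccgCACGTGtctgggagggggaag
Per1: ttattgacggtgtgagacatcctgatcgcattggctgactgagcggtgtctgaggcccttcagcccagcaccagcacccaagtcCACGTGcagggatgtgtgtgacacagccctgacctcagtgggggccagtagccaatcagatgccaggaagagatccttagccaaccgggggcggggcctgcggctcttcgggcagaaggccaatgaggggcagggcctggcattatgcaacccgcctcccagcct
Per3: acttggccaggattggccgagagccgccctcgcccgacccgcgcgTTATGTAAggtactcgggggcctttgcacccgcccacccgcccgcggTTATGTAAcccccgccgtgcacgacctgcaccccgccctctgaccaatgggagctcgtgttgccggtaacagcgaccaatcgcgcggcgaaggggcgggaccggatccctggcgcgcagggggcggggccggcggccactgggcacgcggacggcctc
Nr1d1: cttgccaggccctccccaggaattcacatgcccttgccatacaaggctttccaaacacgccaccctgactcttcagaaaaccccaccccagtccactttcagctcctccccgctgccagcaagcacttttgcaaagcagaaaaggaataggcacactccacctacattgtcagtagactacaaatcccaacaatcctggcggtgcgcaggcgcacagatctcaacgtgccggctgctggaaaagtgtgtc

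In *Ciart* the E-boxes begin 116, 58 and 44 bases before the start of transcription, in *Per1* the E-box begins 166 bases before it, and in *Per3* the D-boxes begin 205 and 158 bases before it. *Per1* has a further start at chr11:69100152, whose promoter holds neither motif. *Tef* has 2 start sites with a promoter each, and each of these holds 1 E-box, at 127 and 138 bases before its own start. Among all 32851 RefSeq promoters in the window from 250 bases before to 50 bases after the start, 7.15% hold at least 1 E-box and 0.0883% hold at least 3, while 1.06% hold at least 1 D-box and 0.0244% hold at least 2. Of the 9 matched clock genes, 3 had an E-box in this window (*Ciart*, *Per1* and *Tef*) and 1 had a D-box (*Per3*). *Arntl*, *Clock*, *Dbp*, *Nr1d1* and *Nr1d2* had neither. *Ciart* and *Per3* are the members with more than 1 such motif in a single promoter. Whether motifs in this window bear on the RNA differences was not tested. A motif match is a description of these letters and not evidence of binding.

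Values are normalized counts, that is, the reads of a gene divided by a factor for each library. The libraries held totals of 14914367 to 17547270 when expressed in the smallest value of each, which would be reads if that value stands for 1 read. *Nedd4l* itself was at 476, 942 and 566 normalized counts in the VillinCre libraries and at 1241, 1271 and 1266 in the fl/fl libraries, so the genotypes did not overlap (log2 difference -0.99, SE 0.24, adjusted p = 0.225 from limma). Without VillinCre replicate 2 the difference of *Nedd4l* was -1.28 (adjusted p = 0.013 from limma), and without VillinCre replicate 1 it was -0.79 (adjusted p = 0.226). In bulk tissue, fewer cells of a type and less RNA per cell cannot be told apart, for this gene and for the clock genes. VillinCre replicate 2 was nearer on average to the other genotype: over all genes tested its mean correlation was 0.966 with its own genotype and 0.977 with the other. Replicate 1 had the lowest mean correlation of all libraries, both with its own genotype (0.963) and with the other (0.948). Its low correlations also enter the own-genotype means of replicates 2 and 3, so that of replicate 2 does not by itself set replicate 2 apart. Replicate 3 lay at 0.975 and 0.973. Differences are therefore also given without VillinCre replicate 1 or 2 where that changed a call or moved a value markedly. Replicate 2 was picked because it resembled the other genotype, so leaving it out favours a larger difference. An adjusted p from a fit without replicate 2 is therefore no separate support for a difference. With any other library left out, 0 of the 10 clock genes passed an adjusted p of 0.05 in limma. Of the 16246 genes whose mean reached 10 normalized counts, 0% passed an adjusted p of 0.05 in limma, and 14.0% had an unadjusted p under 0.05. The 3 libraries of VillinCre mice all lay above the 3 of fl/fl mice for 10.5% of genes and all below for 10.9%.

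Levels of different genes are compared only after division by the gene's exon length in kilobases. In the fl/fl libraries the highest levels per kilobase were those of *Per2* (125 to 260), *Clock* (149 to 170) and *Arntl* (148 to 186), whose ranges overlapped. *Per1* followed at 86.7 to 98.7, then *Tef* at 42.6 to 53.2 and *Nr1d2* at 35.6 to 40.2, none of which overlapped its neighbours. *Per3* (19.6 to 33.2), *Nr1d1* (11.4 to 21.2), *Ciart* (7.56 to 13.7) and *Dbp* (9.24 to 12.3) were lowest, each overlapping the next. In the VillinCre libraries the order was another one: *Clock* stood alone at the top (181 to 215), and *Per1* (111 to 138), *Arntl* (90.2 to 153) and *Per2* (75.7 to 126) overlapped below it. *Nr1d2* (46.6 to 103) overlapped *Arntl* and *Per2* from below, and *Nr1d1* (28.7 to 77.6) and *Tef* (40.5 to 61.9) overlapped *Nr1d2*. *Per3* (20.3 to 28.7) and then *Ciart* (7.30 to 17.0) and *Dbp* (9.31 to 15.1), which overlapped each other, were lowest.

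All 10 clock genes passed the filter on low values. In limma 0 of them passed an adjusted p of 0.05, beside 0% of all genes, and 5 had an unadjusted p under 0.05, beside 14.0% of all genes, 4 higher (*Nr1d1*, *Nr1d2*, *Per1* and *Clock*) and 1 lower (*Per2*) in VillinCre mice. The 4 higher genes did not overlap between the genotypes, beside 10.5% of all genes in that direction, and 0 members were lower without overlap, beside 10.9%. The median log2 difference of the 10 genes was 0.09 (VillinCre minus fl/fl) and that of all genes 0.00, while the median size of the difference regardless of sign was 0.33 against 0.18. The members differed in both directions, with point estimates above 0 for 6 and below 0 for 4. An exact permutation of 3 against 3 libraries cannot give a two-sided p below 0.1.

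**Figure D1:**
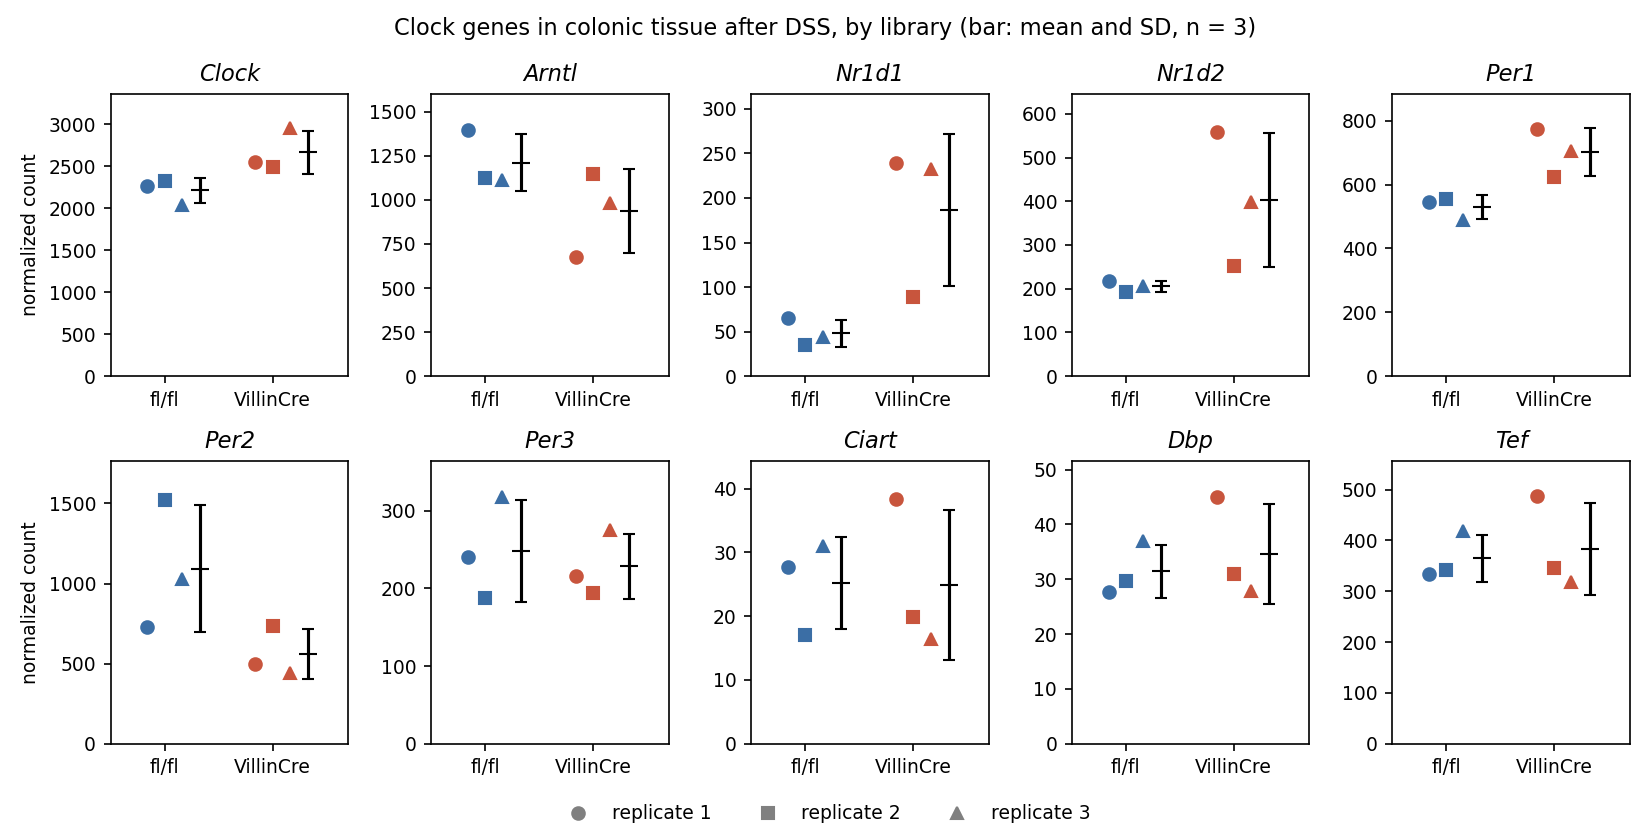
Normalized count (vertical axis, from 0) of each of the 10 clock genes in the 3 fl/fl libraries (blue) and the 3 VillinCre libraries (red). Symbols mark the replicate, and the black bar gives the mean and SD of each genotype (n = 3). The red points lie above all blue points for Clock, Nr1d1, Nr1d2 and Per1, and overlap them for the other 6 genes.

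*Nr1d1*, which encodes the heme-binding repressor REV-ERBα, lies on the minus strand of chromosome 11 (chr11:98767932-98775333 of GRCm38) and differed most among the 10 genes. Its normalized count was 239, 88.4 and 232 in the VillinCre libraries, and 65.2, 35.1 and 43.9 in the fl/fl libraries. Replicates 1 and 3 of the VillinCre mice were high and alike, and replicate 2 lay nearer to the fl/fl libraries but still above each of them. The mean was 186 ± 84.9 against 48.1 ± 15.5 (± SD, n = 3 each), a ratio of 3.88. The log2 difference was 1.85 (SE 0.43, 95% interval 0.85 to 2.84), with an adjusted p of 0.211 from limma, which is short of the threshold. Without VillinCre replicate 2 it was 2.31 with an adjusted p of 0.0319 from limma, in a fit in which 0.750% of genes passed, and without VillinCre replicate 1 it was 1.60 with an adjusted p of 0.242. Leaving out any of the other libraries gave an adjusted p of 0.336 to 0.513 from limma. Of the exon bases of *Nr1d1*, 8.55% (263 bases) also belong to *Thra*, the thyroid hormone receptor gene on the opposite strand, and whether counting used strand is not stated. *Thra* was at 503, 700 and 822 in the VillinCre libraries and at 662, 444 and 643 in the fl/fl libraries, with overlapping genotypes (log2 difference 0.20, adjusted p = 0.694 from limma).

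*Nr1d2*, the gene of the second REV-ERB, lies on the minus strand of chromosome 14 (chr14:18204054-18239127). Its normalized count was 559, 252 and 398 in the VillinCre libraries and 217, 193 and 207 in the fl/fl libraries. The fl/fl libraries were close together, and all VillinCre libraries lay above them, replicate 1 farthest and replicate 2 least. The mean was 403 ± 153 against 205.5 ± 12.4 (± SD, n = 3 each), a ratio of 1.96 and a log2 difference of 0.90 (SE 0.27, 95% interval 0.27 to 1.52, adjusted p = 0.278 from limma). Without VillinCre replicate 2 the difference was 1.20 (adjusted p = 0.0433 from limma), and without VillinCre replicate 1 it was 0.62 (adjusted p = 0.290). Both REV-ERB genes thus had their lowest VillinCre value in the same library.

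*Arntl*, the target that the REV-ERBs repress, lies on the plus strand of chromosome 7 (chr7:113207465-113314126). Its normalized count was 679, 1148 and 979.9 in the VillinCre libraries and 1396, 1123 and 1112 in the fl/fl libraries. The genotypes overlapped, because VillinCre replicate 2 lay above 2 of the fl/fl libraries, while the lowest *Arntl* value of all was that of VillinCre replicate 1, which had the highest *Nr1d1* and *Nr1d2*. The mean was 935 ± 238 against 1211 ± 161 (± SD, n = 3 each), with a log2 difference of -0.40 (SE 0.20, 95% interval -0.87 to 0.07, adjusted p = 0.411 from limma). Replicate 1 carried much of it, since without VillinCre replicate 1 the difference was -0.18 (adjusted p = 0.607 from limma) and without VillinCre replicate 2 it was -0.56 (adjusted p = 0.185).

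*Clock*, the partner of *Arntl*, is a gene of low daily amplitude in most tissues and lies on the minus strand of chromosome 5 (chr5:76209868-76304792). Its normalized count was 2547, 2487 and 2957 in the VillinCre libraries and 2263, 2328 and 2039 in the fl/fl libraries. All VillinCre libraries were above all fl/fl libraries, replicate 3 most, by a ratio of means of 1.21. The log2 difference was 0.27 (SE 0.10, 95% interval 0.05 to 0.49, adjusted p = 0.312 from limma), the smallest of the 5 with an unadjusted p under 0.05.

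The 3 *Per* genes, whose products form the repressor arm with the cryptochromes, did not go together. *Per1* (chr11:69095217-69109960, plus strand), a gene that glucocorticoids also induce, was at 775, 625 and 704 normalized counts in the VillinCre libraries and at 546, 556 and 488 in the fl/fl libraries. The genotypes did not overlap, with a mean of 701 ± 75.0 against 530.1 ± 36.6 (± SD, n = 3 each), a ratio of 1.32 and a log2 difference of 0.40 (SE 0.11, 95% interval 0.14 to 0.65, adjusted p = 0.249 from limma). *Per2* (chr1:91415982-91459324, minus strand) was at 495, 736 and 444 in the VillinCre libraries and at 729.8, 1520 and 1031 in the fl/fl libraries. Here the VillinCre libraries were the lower ones, and the genotypes overlapped only in that VillinCre replicate 2 stood slightly above fl/fl replicate 1. The mean was 558 ± 156 against 1094 ± 399 (± SD, n = 3 each), a log2 difference of -0.94 (SE 0.31, 95% interval -1.70 to -0.18, adjusted p = 0.310 from limma). *Per3* (chr4:151003652-151044665, minus strand) was at 216, 195 and 275 against 240.0, 188 and 319, with full overlap of the ranges and a log2 difference of -0.10 (SE 0.22, 95% interval -0.61 to 0.40, adjusted p = 0.851 from limma). Without VillinCre replicate 2, the differences of *Per1*, *Per2* and *Clock* were 0.48, -1.16 and 0.31, with an adjusted p of 0.0992, 0.165 and 0.188 from limma. Without VillinCre replicate 1 they were 0.32, -0.87 and 0.30, with an adjusted p of 0.345, 0.503 and 0.343 from limma.

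The differences of *Per1* and *Per2* had opposite signs, and the ratio of one to the other can be read within each library, without any scaling between libraries. The ratio of *Per1* to *Per2* normalized counts was 1.57, 0.848 and 1.59 in the VillinCre libraries and 0.748, 0.366 and 0.473 in the fl/fl libraries. The ratio of *Nr1d1* to *Per2* was 0.483, 0.120 and 0.523 against 0.0893, 0.0231 and 0.0426, and that of *Nr1d1* to *Arntl* 0.352, 0.0771 and 0.237 against 0.0467, 0.0313 and 0.0395. In all 3 ratios each VillinCre library lay above each fl/fl library, replicate 2 by the least. The ratios were chosen after the values had been seen and carry no test.

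*Ciart*, whose product CHRONO represses CLOCK and BMAL1, lies on the minus strand of chromosome 3 (chr3:95878503-95882251) and was low in all libraries, at 38.3, 19.9 and 16.5 normalized counts in the VillinCre libraries and 27.7, 17.1 and 31.0 in the fl/fl libraries. The highest and the lowest value were both in VillinCre mice, so no direction can be read from it (log2 difference -0.07, SE 0.40, 95% interval -1.0 to 0.87, adjusted p = 0.950 from limma). That interval spans about 1 log2 unit to either side.

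The output genes *Dbp* and *Tef* encode PAR bZIP factors that carry the rhythm to metabolic genes, and in many tissues *Dbp* has one of the widest daily swings. *Dbp* (chr7:45705088-45710203, plus strand) was at 45.1, 31.0 and 27.9 normalized counts in the VillinCre libraries and 27.7, 29.7 and 37.0 in the fl/fl libraries, a log2 difference of 0.12 (SE 0.29, 95% interval -0.55 to 0.79, adjusted p = 0.877 from limma). *Tef* (chr15:81802421-81826863, plus strand) was at 487, 345 and 319 against 335, 341 and 418 (log2 difference 0.05, SE 0.18, 95% interval -0.36 to 0.47, adjusted p = 0.905 from limma). Both genes overlapped between the genotypes and were highest in VillinCre replicate 1 and next in fl/fl replicate 3. The direction of both turned when VillinCre replicate 1 was left out, to -0.08 for *Dbp* and -0.13 for *Tef*. *Dbp* shares 18.0% of its exon bases (539) with *Sphk2*, a sphingosine kinase gene on the opposite strand, which was at 829 to 990 normalized counts in the VillinCre libraries and 957 to 1290 in the others. *Tef* and *Arntl* share 2.45% and 0.439% of their exon bases with antisense genes that were at no more than 2.88 normalized counts in any library.

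Across the 6 libraries the protein-coding genes with a mean of at least 50 normalized counts most like *Dbp* were *Cxcr5* (Pearson r = 0.991), *Tbc1d10c* (0.989), *Cd79b* (0.988), *Nlrc3* (0.987) and *Gpr174* (0.986), and among those most opposite were *Klhdc8a* (-0.978), *Golga4* (-0.978), *Rapgef3* (-0.970) and *Morf4l1* (-0.964). These lie at the extremes of 11872 genes over 6 points that share library and depth, and 121 genes had r above 0.9. The likeness is a description of these libraries. *Cxcr5* and *Cd79b* are known as B cell genes.

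**Figure D2:**
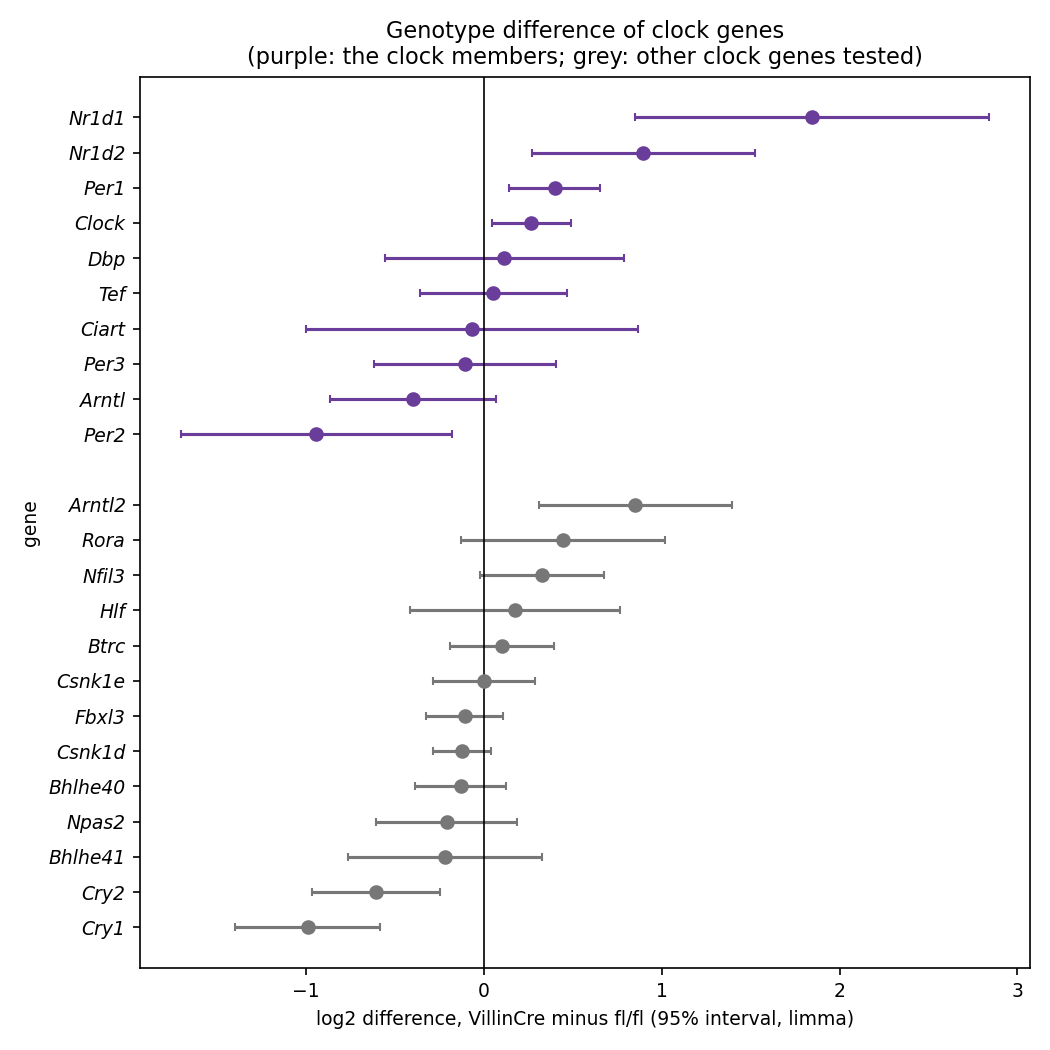
Log2 difference in normalized count, VillinCre minus fl/fl (horizontal axis), with its 95% interval from limma, for the 10 clock genes (purple) and the 13 other clock genes tested (grey). Nr1d1 stands farthest to the right at 1.85 and Cry1 farthest to the left at -0.99; no gene passed an adjusted p of 0.05.

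Of 15 further clock genes, 13 were tested, and *Rorb* and *Fbxl21* were below the filter. In limma 0 passed an adjusted p of 0.05, and at an unadjusted p under 0.05 there were 1 higher (*Arntl2*) and 2 lower (*Cry1* and *Cry2*), beside 14.0% of all genes in either direction. Without overlap there were 2 higher and 3 lower, beside 10.5% and 10.9% of all genes, and the median log2 difference was -0.11. *Cry1*, the late repressor of the loop, was at 449, 709 and 504 normalized counts in the VillinCre libraries and at 1052, 1222 and 979.6 in the fl/fl libraries (log2 difference -0.99, SE 0.17, adjusted p = 0.161 from limma). *Cry2*, its paralog, was at 222, 308 and 243 against 375, 358 and 439 (log2 difference -0.61, SE 0.16, adjusted p = 0.225 from limma). Both cryptochrome genes were lower in every VillinCre library than in any fl/fl library, the same side as *Per2* and the opposite side to *Per1*. Without VillinCre replicate 2 the difference of *Cry1* was -1.18 (adjusted p = 0.0232 from limma) and that of *Cry2* -0.74 (adjusted p = 0.0691), and without VillinCre replicate 1 they were -0.85 (adjusted p = 0.120) and -0.51 (adjusted p = 0.276).

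*Arntl2*, the paralog of *Arntl*, was at 135, 97.3 and 151 normalized counts in the VillinCre libraries and at 57.3, 78.3 and 73.9 in the fl/fl libraries (log2 difference 0.85, SE 0.23, adjusted p = 0.248 from limma), the side opposite to *Arntl*. *Nfil3*, the repressor at D-boxes, was at 271, 211 and 210.4 against 187, 175 and 185 (log2 difference 0.33, SE 0.15, adjusted p = 0.370 from limma). Neither gene overlapped between the genotypes. Without VillinCre replicate 2 the difference of *Arntl2* was 1.03 (adjusted p = 0.0935 from limma), and without VillinCre replicate 1 that of *Nfil3* was 0.21 (adjusted p = 0.625). *Rora*, a ROR receptor gene that activates *Arntl*, was at 157, 133 and 126 against 144, 87.3 and 81.9, with overlap (log2 difference 0.45, SE 0.25, adjusted p = 0.442 from limma).

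**Figure D3:**
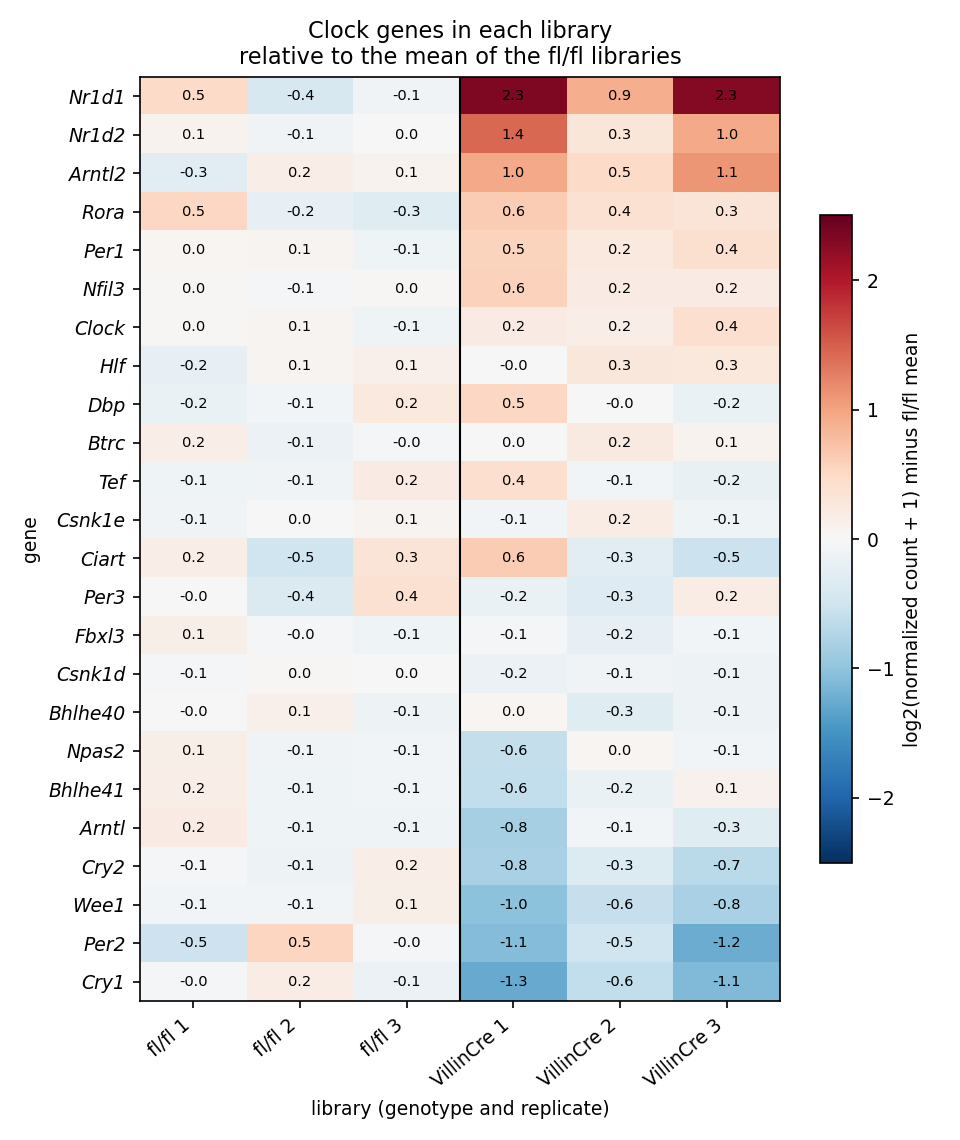
Log2(normalized count + 1) of 24 clock and clock output genes (vertical axis, ordered by their mean in the VillinCre libraries) in each library (horizontal axis) minus the mean of the 3 fl/fl libraries, in log2 units, red for higher and blue for lower. For Nr1d1, Nr1d2, Per2, Cry1 and Cry2, VillinCre replicate 2 shows the same sign as replicates 1 and 3 at a smaller size.

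A transcript that peaks early in the cycle and one that peaks late were read against each other. The ratio of *Nr1d1* to *Cry1*, an early and a late gene of the cycle, was 0.532, 0.125 and 0.460 in the VillinCre libraries and 0.0620, 0.0287 and 0.0449 in the fl/fl libraries. The genotypes did not overlap, and VillinCre replicate 2 lay between the other VillinCre libraries and the fl/fl libraries. Since *Nr1d1* was higher and *Cry1* lower without overlap, their ratio could not overlap and adds no separate information. Like the ratios above, it was chosen after the values had been seen and carries no test. A summary set 8 genes against *Arntl* and *Npas2*, activators chosen for their wide daily rhythm. *Clock* and *Arntl2*, which were higher without overlap, were left out of it. The summary was the mean log2 value of *Dbp*, *Tef*, *Nr1d1*, *Nr1d2*, *Per1*, *Per2*, *Per3* and *Ciart* minus that of *Arntl* and *Npas2*. This summary did not separate the genotypes. It was -1.21, -2.45 and -2.10 in the VillinCre libraries and -2.68, -2.52 and -2.29 in the fl/fl libraries, a difference of 0.58 on the log2 scale with overlap, since VillinCre replicate 2 lay within the range of the other genotype. The difference was 0.22 without VillinCre replicate 1 and 0.84 without replicate 2. With *Dbp* and *Nr1d1* against *Arntl* alone the values were -2.69, -4.43 and -3.58 against -5.00, -5.08 and -4.75, a difference of 1.38 without overlap. Of these genes only *Nr1d1* was without overlap by itself (log2 difference 1.85, against 0.12 for *Dbp* and -0.40 for *Arntl*). This value therefore largely repeats that of *Nr1d1*. The hour of sampling not being given, a difference in sampling time cannot be told apart from one of genotype in any of these values.

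**Figure D4:**
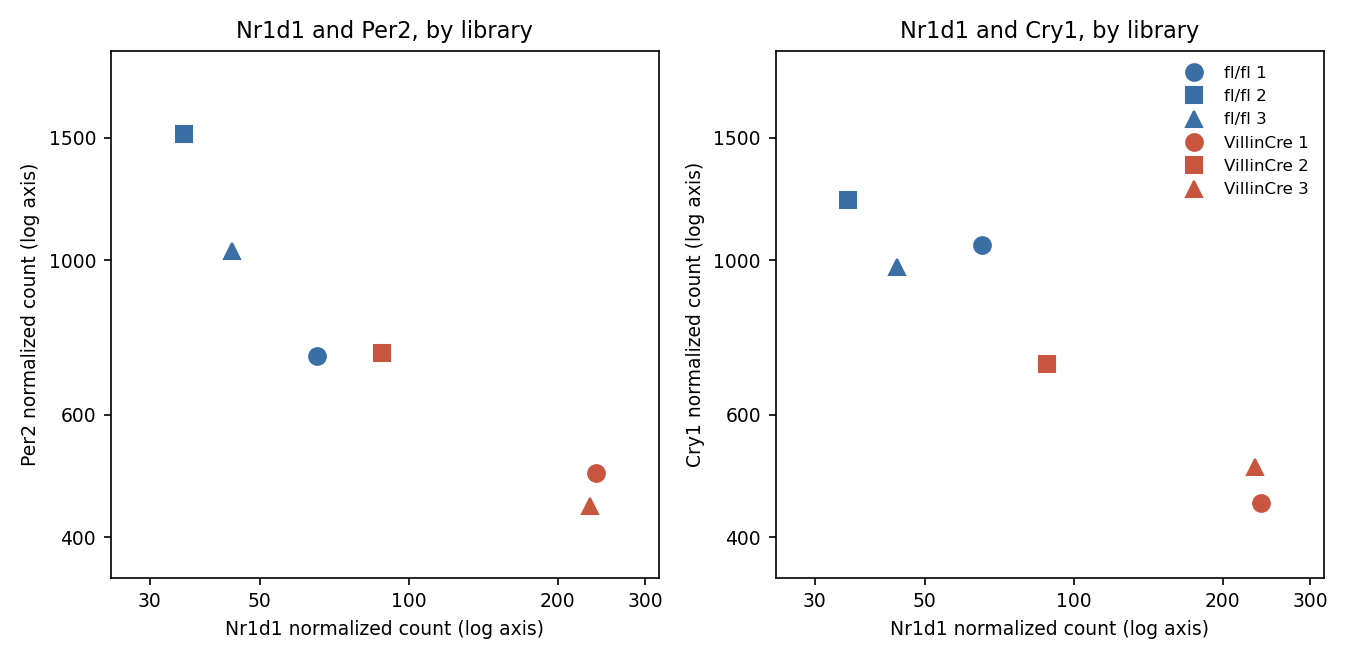
Normalized count of Nr1d1 (horizontal axis, log scale) against that of Per2 (left) and Cry1 (right; vertical axes, log scale) in the 3 fl/fl libraries (blue) and 3 VillinCre libraries (red), with a symbol for each replicate. VillinCre replicates 1 and 3 lie at high Nr1d1 (239 and 232) and low Per2 and Cry1, and the fl/fl libraries at low Nr1d1. VillinCre replicate 2 lies between them in Nr1d1 and Cry1, and its Per2 (736) is just above that of fl/fl replicate 1 (729.8).

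Genes that follow the clock in many tissues were a list of 9 names, of which *Ccrn4l* is the older symbol of *Noct*, and 8 were tested. In limma 0 passed an adjusted p of 0.05, 0 were higher and 1 lower at an unadjusted p under 0.05, beside 14.0% of all genes in either direction, and the median log2 difference was 0.00. The lower one was *Wee1*, a kinase gene of the G2/M checkpoint with E-boxes in its promoter, at 235, 323 and 274 normalized counts in the VillinCre libraries and 459, 456 and 529 in the fl/fl libraries. Its genotypes did not overlap (log2 difference -0.80, SE 0.14, adjusted p = 0.159 from limma), and without VillinCre replicate 2 the difference was -0.92 (adjusted p = 0.0455 from limma). *Tspan4* (log2 difference 0.75, adjusted p = 0.400 from limma), *Usp2* (-0.40, adjusted p = 0.581), *Nampt* (0.11, adjusted p = 0.802) and *Noct* (0.12, adjusted p = 0.830) all overlapped between the genotypes. Without VillinCre replicate 1 the difference of *Tspan4* was 0.33 and that of *Usp2* -0.18.

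*Per1* is also a glucocorticoid target, so 9 genes of the glucocorticoid response were read beside it, a list that holds *Per1* itself and shares *Tsc22d3* with the previous list. In limma 0 passed an adjusted p of 0.05, and 3 were higher and 0 lower at an unadjusted p under 0.05, beside 14.0% of all genes in either direction, with a median log2 difference of 0.37. Besides *Per1* these were *Zbtb16*, a transcription factor gene, at 152, 70.8 and 60.9 normalized counts in the VillinCre libraries against 46.4, 51.3 and 22.0 (log2 difference 1.19, adjusted p = 0.316 from limma), and *Dusp1*, a MAP kinase phosphatase gene, at 836, 841 and 517 against 574, 342 and 414 (log2 difference 0.72, adjusted p = 0.316 from limma). *Zbtb16* did not overlap between the genotypes and *Dusp1* did. *Fkbp5* (0.37, adjusted p = 0.621 from limma) and *Sgk1* (0.44, adjusted p = 0.629) overlapped, and their interval includes 0. The rest of the list overlapped as well, at 0.00 for *Tsc22d3*, -0.11 for *Klf9*, -0.13 for *Cdkn1a* and -0.03 for *Nr3c1* (adjusted p from 0.674 to 0.994 in limma). Without VillinCre replicate 1 the differences of *Fkbp5*, *Sgk1* and *Zbtb16* were 0.04, 0.25 and 0.79. The part of glucocorticoids in the *Per1* values was not tested.

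Markers of cell types were read beside the clock genes because the clock of each cell type contributes to bulk tissue. The 8 epithelial markers, among them *Epcam* and *Cdh1*, summed to 186884 to 212656 normalized counts in the VillinCre libraries and to 195180 to 212477 in the fl/fl libraries, with 0 markers that did not overlap. The 5 fibroblast markers summed to 11133 to 22688 against 6007 to 9775, and 2 of them were higher without overlap, beside 10.5% of all genes. The 6 leukocyte markers summed to 8178 to 12461 against 5500 to 7623, with 1 marker higher and 1 lower without overlap, beside 10.5% and 10.9% of all genes. The 6 smooth muscle markers (5395 to 10588 against 4824 to 20465), the 4 endothelial markers (1330 to 2408 against 944 to 1461) and the 4 markers of enteric neurons and glia (36.5 to 85.6 against 54.9 to 128) overlapped in their sums, and 0 of all these markers were at 0 in a library. The fibroblast and leukocyte sums were thus higher without overlap in the same genotype as *Nr1d1*, *Nr1d2*, *Per1* and *Clock*, and their part in those values was not tested. Abundant genes weigh most in a sum: the fibroblast markers without overlap were *Col1a1* and *Col1a2*, and the higher leukocyte marker was *Lyz2*. *Cd3e* was the lower one (log2 difference -0.45, adjusted p = 0.391 from limma). The remaining markers of both lists overlapped between the genotypes, so a higher sum was not a rise of every marker.

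When libraries were given the array weights of limma, which down-weight libraries that deviate from the fit, 4 of the 10 clock genes passed an adjusted p of 0.05 in a fit in which 3.88% of all genes did. They were *Nr1d1* (log2 difference 2.15, adjusted p = 0.0212 from limma), *Nr1d2* (0.92, adjusted p = 0.0310), *Per1* (0.42, adjusted p = 0.0387) and *Clock* (0.40, adjusted p = 0.0419). *Nedd4l* passed in the same fit (-1.09, adjusted p = 0.0212 from limma). Of the genes named from the further lists, *Cry1* (-1.03, adjusted p = 0.00975 from limma) and *Wee1* (-0.82, adjusted p = 0.0141) also passed. So did *Cry2* (-0.68, adjusted p = 0.0274 from limma) and *Arntl2* (1.03, adjusted p = 0.0314). The others named from those lists, *Per1* aside, did not pass. The weights were 0.414, 0.562 and 4.39 for the VillinCre libraries and 0.921, 0.792 and 1.34 for the fl/fl libraries, so that this fit rested largely on VillinCre replicate 3. *Per2*, whose spread within fl/fl mice was the widest of the 10 in normalized counts, did not pass in any of the alternatives, with adjusted p from 0.0681 to 0.520 in limma.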

How the data were processed

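RNA was extracted with TRIzol from colonic tissue and libraries were made with the NEBNext Ultra RNA kit. The submitters' processing notes name HISAT2 2.0.5 and featureCounts 1.5.0-p3. The authors deposited 1 table of normalized counts, a signal in which the reads of each gene are scaled by 1 size factor for the library, for 3 libraries of each genotype. Its deposited genotype means, log2 fold changes, p-values and adjusted p-values are the authors' own comparison and were not used. Coordinates are as the table lists them and equal those of the mouse GENCODE release M21 (GRCm38) for all 10 genes. Whether counting used strand is not stated.

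Values were tested as log2(normalized count + 1), on which scale differences of low genes are understated, over genes with a mean of at least 10, with limma 3.58.1 (lmFit, then eBayes with its trend and robust options, R 4.3.3) on genotype alone, two-sided, with Benjamini-Hochberg adjustment over all 16246 genes at a threshold of 0.05. The script was tested on simulated data. Promoters were read from RefSeq, and plots used matplotlib 3.10.9 in Python 3.11.15. No source says whether each library is 1 mouse, so p-values measure the spread between libraries.

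The 10 genes and all lists were chosen with earlier results of these data known. All 10 genes are named. Of each further list those past the threshold, or else the 5 with the smallest p, are named, with *Nedd4l* and the protein-coding genes most like and most opposite (5 of each sought) to *Dbp*. *Npas2*, *Thra*, *Sphk2*, *Tsc22d3*, *Klf9*, *Cdkn1a*, *Nr3c1*, the cell type markers and the untested genes are named outside that rule. Some genes of the planned lists or within the rule are not reported here, and the list counts and plots leave them out. Alternatives were quantile normalization, other filters and pseudocounts, array weights, a replicate block and leaving out each library.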

Additional observations from a re-analysis of the deposited data

How the results depend on the processing

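Over 13 alternatives of the limma fit, 19 of 25 genes, those named from the lists by the rule above and *Nedd4l*, kept their direction. The number of clock genes past an adjusted p of 0.05 in limma, 0 as reported, was 4 with array weights and 0 to 2 when each library was left out in turn. For all genes the number, 0 as reported, was 30 with no filter on low values, 631 with array weights and 0 to 122 when each library was left out, with 24 without *Nedd4l* fl/fl VillinCre replicate 1 and 122 without *Nedd4l* fl/fl VillinCre replicate 2. With array weights *Per3* was at 0.031, *Dbp* at -0.13 and *Tef* at -0.16, opposite in sign to the reported log2 differences. Leaving out each library gave -0.084 to 0.25 for *Dbp*, -0.13 to 0.18 for *Tef*, -0.29 to 0.09 for *Per3*, -0.41 to 0.17 for *Ciart*, -0.078 to 0.27 for *Nampt* and -0.052 to 0.38 for *Noct*. The summary of clock output against activators moved from 0.58 to 1.38 with *Dbp* and *Nr1d1* against *Arntl* alone, and ran from 0.22 to 0.84 when each library was left out. Clock genes without overlap were 4 as reported, beside 10.5% of all genes higher and 10.9% lower. They were 5 after quantile normalization, an alternative chosen after seeing the data. The share of all genes without overlap was not computed after that normalization, so the 5 cannot be set beside it. The cause of these changes was not tested.

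Libraries with equal replicate numbers did not deviate together: the correlations of same-numbered deviations were -0.029, -0.090 and -0.056, beside -0.024 to 0.064 for libraries of unequal number. These values cannot show whether the mice were paired in the experiment. With the replicate block, 0 clock genes and 0 genes passed in limma, with adjusted p of 0.192 for *Nr1d1* and 0.197 for *Per2*. Where a library was left out, the reduced group kept 2 libraries. With a minimum mean of 50, *Dbp* and *Ciart* were not tested. The planned edgeR and DESeq2 alternatives were not run. All values were whole multiples of the smallest value of their library, and the reads behind that value are not stated. At 16.5 to 45.1 normalized counts, *Dbp* and *Ciart* gave wide intervals, and a change of 0.79 for *Dbp* is not excluded.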
